A study of Mus musculus with 6 samples.

Results

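Interferon-stimulated genes other than the sensors of double-stranded RNA were followed in intestinal epithelial cells (IEC) with and without caspase-8. Of 35 genes on the list, 33 were measured by a probe set paired with that gene alone, among 18193 measured genes. Each gene was read from its brightest such probe set. Isg15 was left out because its probe set is also paired with a second gene, and Ifi44 because no single-gene probe set was matched to it.

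RNA came from 6 C57BL/6 mice, each giving 1 Affymetrix array of gene expression. The 3 floxed controls carried the floxed casp8 gene and no villinCre transgene. The 3 caspase-8 deficient mice carried the floxed gene together with villinCre, in which the villin promoter drives Cre recombinase in gut epithelial cells, so that lymphocytes and other cells of the mucosa keep the gene. All 6 mice therefore carried the floxed allele, and effects of Cre itself and of the deletion cannot be told apart with these 2 groups. The sources used here do not give age, sex, gut segment or time of deletion.

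Interferons are secreted proteins that warn cells of infection. Type I interferons, and type III interferons at epithelial surfaces, bind receptors whose kinases JAK1 and TYK2 activate transcription factors. STAT2 and IRF9 act in a complex that binds the interferon-stimulated response element (ISRE) in the promoters of its target genes. Interferon-gamma acts mainly through another promoter element, the gamma-activated site (GAS). The products of the target genes block viral entry, translation and replication, or tune the pathway itself. Several genes on the list, among them Ifit1, Adar and Ddx60, encode proteins that bind viral or double-stranded RNA without belonging to the sensor and OAS families.

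Promoter sequence was not itself used in choosing the genes. They were listed as interferon-stimulated, however, so the shares below describe the list and are no independent evidence. RefSeq promoter windows (GRCm38.p6, from 250 bases before to 50 bases after each start site, 300 in all) were matched for 28 of the 35 listed genes. Usp18, Mx1, Mx2, Parp9, Parp14, Ifi27l2a and Rtp4 were not matched. The ISRE core was searched as GAAA, any 2 bases and GAAA again, on both strands, and GAS as TTCNNNGAA, which reads the same on both. The ISRE core was found in 10 of the 28 genes (35.7%), against 3.99% of 27025 genes and 3.44% of 32851 windows. GAS was found in 6 of the 28 (21.4%), against 9.55% of all genes and 8.3% of windows. In Bst2 and Ifitm3 the GAS match overlapped an ISRE core.

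The following stretches show the ISRE core in genes of several roles, in 5 with large differences, in the transcription factor gene Stat2 and in the 1 gene with a negative difference. They are written 5′ to 3′ on the gene's strand, with the ISRE core matches in capitals (overlapping matches run together). Ifit3 is shown from base −250 to −1 before its start, at chr19:34583279-34583528 on the plus strand. Ifit1 lies at chr19:34640759-34640838 and Ddx60 at chr8:61928007-61928086, both on the plus strand. Bst2 lies at chr8:71537548-71537627 and Rsad2 at chr12:26456523-26456602, both on the minus strand. Stat2 lies at chr10:128270248-128270327 on the plus strand. For Trim21 the matches fell after the start site, from base 14 to 29, and a stretch at chr7:102565448-102565477 on the minus strand is given.
Ifit3: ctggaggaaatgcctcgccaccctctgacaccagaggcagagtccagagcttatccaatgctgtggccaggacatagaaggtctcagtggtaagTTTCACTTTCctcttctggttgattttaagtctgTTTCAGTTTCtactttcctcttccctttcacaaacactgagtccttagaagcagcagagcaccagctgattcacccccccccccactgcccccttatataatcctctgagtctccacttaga
Ifit1: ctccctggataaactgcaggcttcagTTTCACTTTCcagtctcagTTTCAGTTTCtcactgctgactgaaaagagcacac
Ddx60: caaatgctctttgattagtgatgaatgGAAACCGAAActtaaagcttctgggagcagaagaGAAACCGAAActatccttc
Bst2: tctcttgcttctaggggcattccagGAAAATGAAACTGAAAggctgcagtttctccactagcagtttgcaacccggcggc
Rsad2: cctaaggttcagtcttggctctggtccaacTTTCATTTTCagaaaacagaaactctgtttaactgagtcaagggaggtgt
Stat2: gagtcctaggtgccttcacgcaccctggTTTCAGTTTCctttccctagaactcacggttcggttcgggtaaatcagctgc
Trim21: tctgagagGAAACTGAAAGTGAAAtttgga
Ifit3 and Ifit1 hold the same pair of matches, in the same order and both on the reverse strand. Ddx60 holds the same 10 bases 2 times, close to the start site.

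The arrays were checked first. Casp8 averaged 10.17 ± 0.40 in the controls and 9.74 ± 0.58 in the deficient cells on the log2 scale (SD, n = 3; adjusted p = 0.518); the exons removed are not named in the labels, so this probe set does not check the genotypes. Markers of epithelium were bright, with mean levels over 8 genes of 12.94 to 12.97 on the control arrays and 13.06 to 13.16 on the deficient arrays. Degraded RNA gives a larger gap between the 3′ and 5′ probe sets of Gapdh. This gap was 0.68 for control replicate 1, 0.93 for control replicate 2 and 0.22 for control replicate 3, while the deficient arrays had 0.21 to 0.29. Deficient replicate 1 stood apart, with 211 genes exceeding all other arrays by over 1 log2 unit, where the other arrays had 1 to 33 such genes. The mean over 6 endothelial markers was 7.42 on that array and 3.91 to 4.37 on the other 5.

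The interferon-stimulated genes were mostly higher without caspase-8. Of the 33 genes, 2 rose past an adjusted p of 0.05 in limma over all genes (0.308% of all genes did), 0 fell (0.467% of all genes did) and 31 did not pass. The 2 were Rtp4, which encodes a receptor transporter protein induced by interferon, and Ifit3, an antiviral tetratricopeptide protein. In 17 of the 33 genes all deficient arrays lay above all controls, which 11.5% of all genes did, and in 0 genes did they all lie below, which 11.2% did. An unadjusted p under 0.05 was reached by 19 genes in the upward direction (8.12% of all genes) and by 0 in the downward direction (8.53%). The difference was positive in 32 of 33 genes, against 53.9% of all genes, and at least 2-fold in 4 genes, against 0.72%. Its median over the 33 was 0.48 on the log2 scale, and over all genes 0.022. The genes were listed with results of these arrays known, so these counts describe them and are no independent evidence. Over all genes 141, or 0.775%, passed in either direction.

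Each call was lost when certain single arrays were left out. Rtp4 still passed without control replicate 3 or deficient replicate 1, and of the single arrays Ifit3 could spare deficient replicate 1 only. With 1 array left out, the log2 difference stayed between 1.04 and 1.26 for Rtp4 and between 0.98 and 1.26 for Ifit3. The count of genes that rose was 0 without control replicate 1, control replicate 2, deficient replicate 2 or deficient replicate 3, 2 without control replicate 3 (Usp18 and Rtp4) and 7 without deficient replicate 1. Calls over all genes moved as well, from 141 with all arrays to 23 without control replicate 1. The count of listed genes that rose was also 0 with the Gapdh difference as a covariate (36 of all genes passed), where 14 genes had an unadjusted p under 0.05 and a positive difference. It was 0 without control replicates 1 and 2 together, where 10 did, but this leaves 1 control array, which is assumed to vary like the deficient ones. The part of RNA quality in these differences was not tested. Over all the alternatives, the count reached 18 with array weights, where 1406 of the 18193 genes passed in either direction. The median difference of the members lay between 0.39 and 0.65 over the same alternatives.

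**Figure D1:**
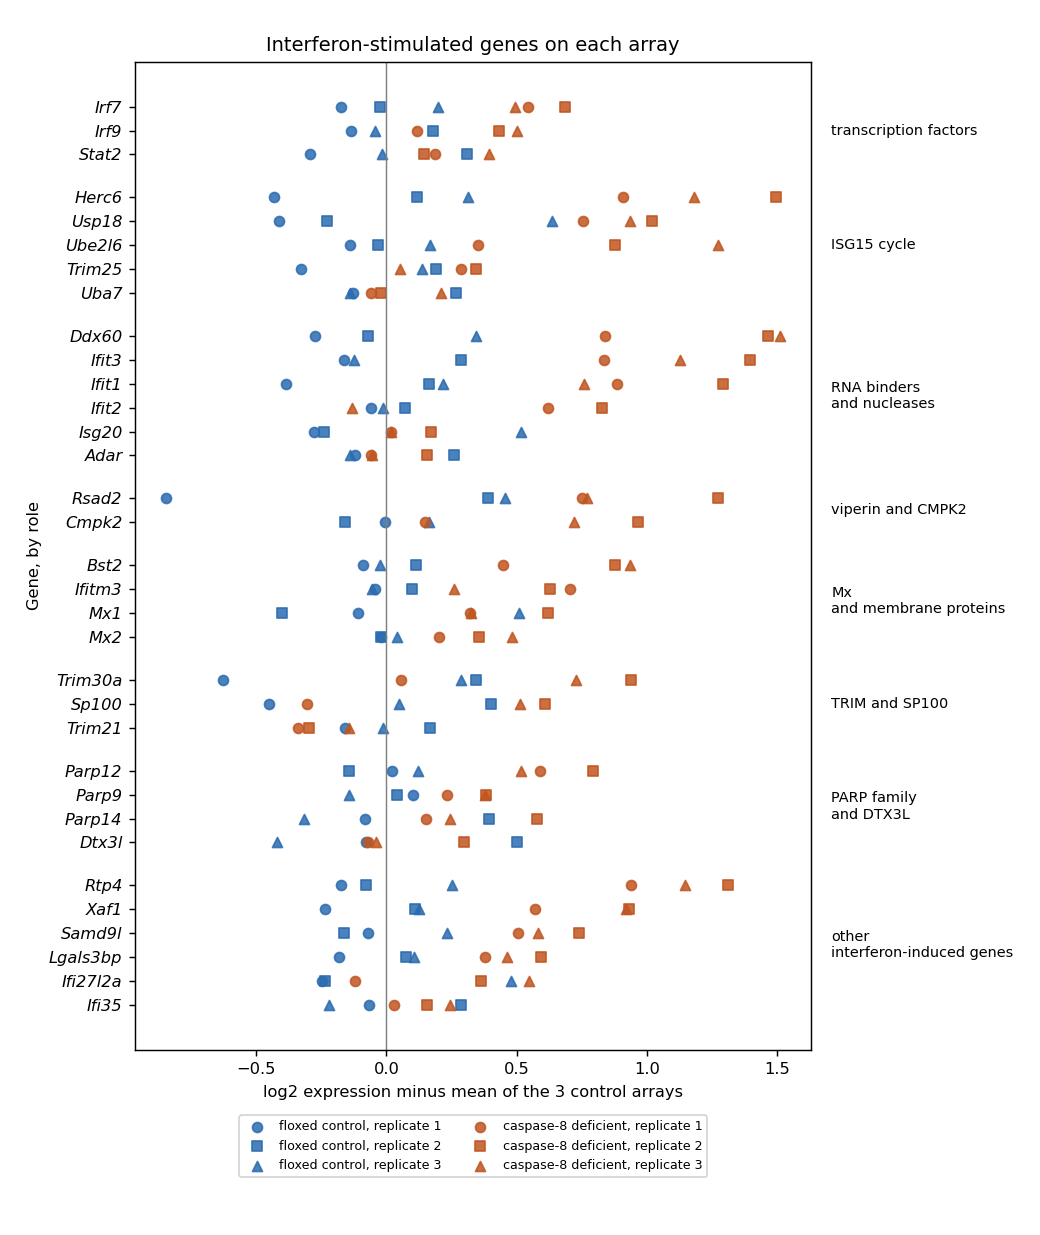
Each point is 1 array's log2 expression of 1 gene minus the mean of the 3 control arrays (x axis), for the 33 measured genes grouped by role (y axis); blue marks floxed controls, orange caspase-8 deficient arrays, and the symbol the replicate. All orange points lie to the right of all blue points in 17 genes, while for Adar, Dtx3l, Isg20 and Uba7 they mix.

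The largest differences belonged to genes of several roles. Rtp4 was at 8.67, 8.76 and 9.09 on the control arrays, against 9.78, 10.15 and 9.99 on the deficient ones. Every deficient array lay above every control. Rtp4 rose by 1.13 on the log2 scale (SE 0.16, 2.19-fold, adjusted p = 0.0258). Its second, dimmer probe set stood at 0.51 (here and below, a gene or probe set stands at its log2 difference, deficient minus control).

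Of 6 genes for RNA binders and nucleases, 1 rose and 5 did not pass, with a median difference of 0.71. The IFIT proteins among them bind viral RNA and hold up its translation. Ifit3 was at 6.70, 7.15 and 6.74 on the control arrays, against 7.70, 8.26 and 7.99 on the deficient ones, with no overlap. It rose by 1.12 (SE 0.18, 2.18-fold, adjusted p = 0.0454). Ifit1, which recognises RNA ends that lack the marks of self RNA, read 8.96, 9.51 and 9.56 against 10.23, 10.64 and 10.10. These groups too were apart, and the difference of 0.98 (95% confidence interval 0.51 to 1.45) did not pass (adjusted p = 0.0816). Ifit2 was split among the deficient animals: replicates 1 and 2 read 6.35 and 6.55, and replicate 3 read 5.59, below all controls (5.67 to 5.79).

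The other genes of this group ran from the largest difference to nearly 0. Ddx60, a helicase that promotes antiviral signalling, had the largest of the 33 measured. It was at 7.02, 7.23 and 7.64 on the control arrays, against 8.13, 8.76 and 8.81 on the deficient ones, and stood at 1.27 (SE 0.22, adjusted p = 0.0532). Its other probe set stood at 1.16. At the low end, Isg20, an exonuclease that degrades viral RNA, stood at 0.07, and Adar, which edits adenosines in double-stranded RNA, at 0.01. Control replicate 3 had the highest Isg20 level of all arrays, at 6.68, and the other Adar probe sets stood at −0.24 and 0.19.

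ISG15 is a ubiquitin-like protein that UBA7 activates, UBE2L6 carries and ligases such as HERC6 attach to targets, while USP18 removes it and also shuts down the type I receptor. Of the 5 measured genes of this cycle 0 passed in limma (3 at an unadjusted p under 0.05), the groups were apart in 3, and the median difference was 0.83. Herc6 was at 6.55, 7.10 and 7.29 on the control arrays, against 7.89, 8.48 and 8.16 on the deficient ones, a difference of 1.20 (SE 0.22, adjusted p = 0.0627). Its other probe sets stood at 0.36, 1.02 and 1.05. Ube2l6 read 6.21, 6.32 and 6.52 against 6.70, 7.23 and 7.62, with its deficient arrays spread over a wider range than its controls. Usp18 read 7.63, 7.82 and 8.68 against 8.80, 9.06 and 8.98. Control replicate 3 lay just under the deficient arrays, and the difference of 0.90 (adjusted p = 0.158) was 1.22 (adjusted p = 0.0375) without that control. It was 0.70 without control replicate 1, 0.40 with the Gapdh covariate (adjusted p = 0.66) and 0.26 without control replicates 1 and 2. Uba7, at the head of the cycle, stood at 0.04, with a 95% confidence interval of −0.30 to 0.39. Trim25, which ubiquitinates RIG-I and can also act as an ISG15 ligase, stood at 0.23 by the probe set used and at 0.39 and 0.79 by its others.

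Of the 3 transcription factors of the pathway 0 passed in limma (2 at an unadjusted p under 0.05), with a median difference of 0.35. Irf7, which amplifies interferon production, was at 8.56, 8.71 and 8.93 on the control arrays, against 9.28, 9.42 and 9.23 on the deficient ones. The groups were apart, and the difference of 0.58 (SE 0.13) did not pass (adjusted p = 0.101). Irf9 read 8.36, 8.67 and 8.45 against 8.61, 8.93 and 8.997, where deficient replicate 1 fell among the controls. Stat2 overlapped as well, at 6.02 to 6.62 against 6.45 to 6.70, with a difference of 0.24 and 0.51 by its dimmer probe set. By the probe set used, it was 0.097 without control replicate 1 and 0.40 without control replicate 2.

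Rsad2 and Cmpk2 lie next to each other in the genome and encode viperin, which makes a chain-terminating nucleotide, and the kinase that supplies its substrate. Rsad2 was at 8.29, 9.53 and 9.60 on the control arrays, against 9.89, 10.42 and 9.91 on the deficient ones. Control replicate 1 was more than 1 log2 unit below the other controls, and all deficient arrays lay above all controls. The difference was 0.93 (95% confidence interval 0.15 to 1.71) and 0.51 without that control. The dimmer Rsad2 probe sets stood at 1.04 and 1.61. Cmpk2 read 8.25, 8.10 and 8.42 against 8.41, 9.23 and 8.98, so that deficient replicate 1 was level with control replicate 3.

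Of 4 genes for proteins that act at membranes or on viral components, 0 passed in limma (3 at an unadjusted p under 0.05) and the groups were apart in 3. Bst2, or tetherin, which holds budding virus at the cell surface, was at 6.95, 7.15 and 7.01 on the control arrays, against 7.48, 7.91 and 7.97 on the deficient ones. The difference was 0.75 (SE 0.15, adjusted p = 0.0778). Ifitm3, which blocks fusion of viruses with endosomes, read 8.75, 8.90 and 8.74 against 9.503, 9.43 and 9.06, at 0.53. Both genes were apart between the groups. The Mx genes encode dynamin-like GTPases that trap viral components, and C57BL/6 mice are known for a defective Mx1. Mx1 read 6.07, 5.78 and 6.69 against 6.50, 6.80 and 6.51, and control replicate 3 lay within the deficient range. Mx2 spanned 5.75 to 5.81 against 5.97 to 6.25, a difference of 0.35.

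Of 3 TRIM and nuclear body genes 0 passed in limma (0 at an unadjusted p under 0.05), and the groups overlapped in all 3. Trim21, an antibody receptor inside cells, was the 1 gene with a negative difference. It was at 7.56, 7.89 and 7.71 on the control arrays, against 7.38, 7.42 and 7.58 on the deficient ones, at −0.26 (95% confidence interval −0.56 to 0.04). Its dimmer probe set stood at 0.45, so the sign rests on the choice of probe set. Trim30a read 6.45, 7.43 and 7.37 against 7.14, 8.02 and 7.81. The dimmer Trim30a probe set stood at 0.84, against 0.57 for the one used. Sp100, a component of PML nuclear bodies, stood at 0.27. Without control replicate 1 Trim30a stood at 0.26 and Sp100 at 0.046, and without deficient replicate 1 at 0.83 and 0.56.

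Of 4 genes of the PARP family and DTX3L 0 passed in limma (2 at an unadjusted p under 0.05), and the groups were apart in 2. PARP9 and DTX3L form a complex that modifies histones and viral proteins, and their genes adjoin each other, with Parp14 on the far side of Dtx3l. Parp9 was at 9.49, 9.43 and 9.25 on the control arrays, against 9.62, 9.77 and 9.77 on the deficient ones, at 0.33. Dtx3l read 9.30, 9.88 and 8.96 against 9.31, 9.68 and 9.34, which overlapped throughout, at 0.06 (95% confidence interval −0.47 to 0.59). Parp14 stood at 0.33, and at −0.15 by its dimmer probe set. Parp12, which restricts translation of viral RNA, had the largest difference of the 4. It read 9.65, 9.48 and 9.75 against 10.22, 10.42 and 10.14, a difference of 0.63 (SE 0.13, adjusted p = 0.076).

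Of 6 other interferon-induced genes 1 rose, Rtp4, and 5 did not pass. Xaf1, an antagonist of the caspase inhibitor XIAP, was at 8.32, 8.67 and 8.69 on the control arrays, against 9.13, 9.49 and 9.48 on the deficient ones. It stood at 0.81 (SE 0.16, adjusted p = 0.0684), while its far dimmer second probe set stood at 0.08. Samd9l, a restriction factor against poxviruses, stood at 0.61 and the secreted glycoprotein gene Lgals3bp at 0.48, both with groups apart. Ifi35 stood at 0.14 by the probe set used and at 0.24 and 0.53 by its others. Ifi27l2a stood at 0.26, with control replicate 3 at 7.09 above deficient replicates 1 and 2. Of the 33 genes, 16 had more than 1 single-gene probe set. In 8 of these, Adar, Herc6, Parp14, Rsad2, Rtp4, Trim21, Trim25 and Xaf1, another probe set had the opposite sign or differed by over 0.5.

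**Figure D2:**
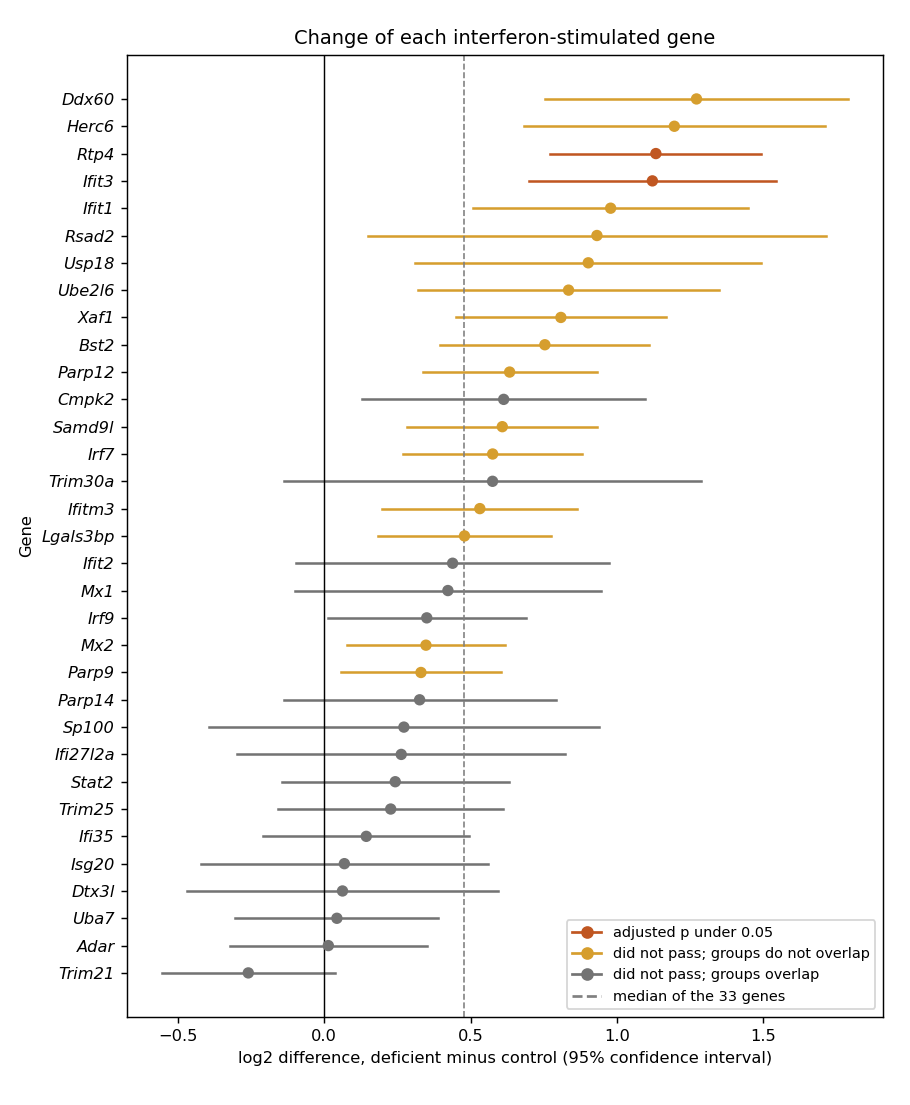
Points are log2 differences of caspase-8 deficient minus control arrays for the 33 genes and bars their 95% confidence intervals from limma (n = 3 per group); dark orange marks the 2 genes that passed, yellow those that did not but whose groups do not overlap, and grey the rest. The intervals of 19 genes lie wholly above 0, and the dashed line marks the median of 0.48.

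Genes with and without an ISRE core match in their promoter window overlapped in their differences. The 9 measured genes with an ISRE core had a median difference of 0.75, from −0.26 (Trim21) to 1.27 (Ddx60), and the groups did not overlap in 6. The 17 measured genes with a window but no match had a median of 0.44, from 0.01 (Adar) to 1.20 (Herc6), and the groups did not overlap in 7. Genes with a GAS match had a median of 0.29 (6 genes) and those without one 0.59 (20 genes). These medians are descriptions and were not tested.

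**Figure D3:**
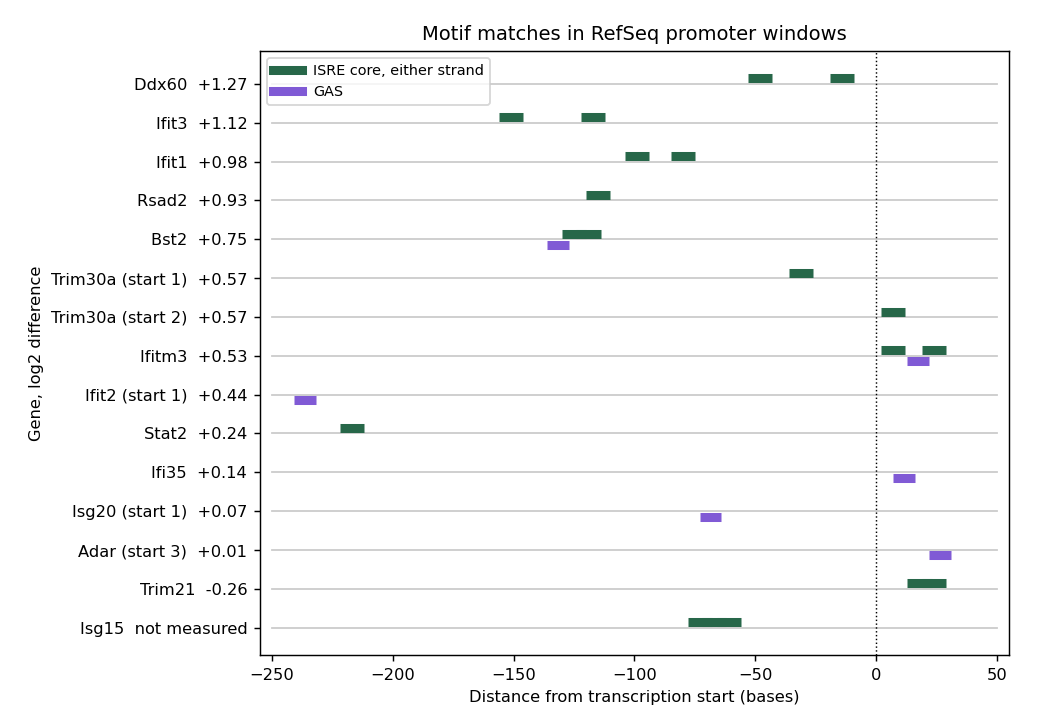
Bars mark matches to the ISRE core (green) and GAS (purple) by distance in bases from the transcription start (dotted line at 0) in each RefSeq window that holds one; labels on the y axis give the gene and its log2 difference. The ISRE core matches of Ddx60, Ifit3, Ifit1, Rsad2 and Bst2 lie before the start, those of Ifitm3 and Trim21 after it.

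Of 9 measured receptor and kinase genes, 1 rose, 0 fell and 8 did not pass, and all 9 differences were positive, with a median of 0.27. Ifnlr1, which encodes the chain that makes epithelial cells responsive to type III interferon, was at 7.30, 7.47 and 7.42 on the control arrays, against 8.08, 8.10 and 8.10 on the deficient ones. The deficient arrays were close together, and all lay above the controls. Ifnlr1 rose by 0.70 (SE 0.11, 1.63-fold, adjusted p = 0.0378). It was not called without control replicate 1, 2 or 3 or deficient replicate 2 or 3 (adjusted p = 0.0848 to 0.178 in limma). Nor was it called with the replicate number as a block (adjusted p = 0.078) or with the Gapdh covariate (adjusted p = 0.207). The type I receptor gene Ifnar2 stood at 0.48 and Il10rb, whose product pairs with IFNLR1, at 0.41, both with groups apart. The second Il10rb probe set stood at −0.12.

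The interferons that could be measured were dim. Of 16 listed, 9 were measured, and the type III interferon genes Ifnl2 and Ifnl3 were not among them. Of 9 measured interferon genes 0 passed in limma (1 at an unadjusted p under 0.05), with a median difference of 0.069 and mean levels on the arrays of 3.30 to 3.50, near the low end of the scale. Ifna5 stood at 0.41 with groups apart, by a probe set that can cross-hybridise with its relatives. Ifnb1 read 4.12, 3.89 and 3.64 against 3.93, 4.14 and 4.49, and Ifng 3.64, 4.51 and 3.37 against 3.37, 3.71 and 3.80, both overlapping. Of 6 inhibitors of interferon signalling 0 passed in limma (1 at an unadjusted p under 0.05, Ptpn2), and the median was −0.14. All 6 differences were negative, and 2 of them turned positive when the arrays were centred on their medians. The phosphatase gene Ptpn2 was at 10.03, 10.11 and 9.97 on the control arrays, against 9.69, 9.75 and 9.77 on the deficient ones, at −0.30. Of 12 genes that induce interferon, 0 passed in limma (1 at an unadjusted p under 0.05), with a median of 0.016.

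Of 9 sensors of double-stranded RNA and OAS genes, 1 rose (Oas1a, 0.94, adjusted p = 0.0246 in limma), 0 fell and 8 did not pass. All 9 differences were positive, with a median of 0.87. In 7 of the 9 all deficient arrays lay above all controls, against 11.5% of all genes. Oas1a was not called without control replicate 1, 2 or 3 or deficient replicate 2 or 3 (adjusted p = 0.0519 to 0.131 in limma). Nor was it called with the Gapdh covariate (adjusted p = 0.191). Of 20 further interferon-stimulated genes outside both sets, 0 passed in limma (6 at an unadjusted p under 0.05), 15 were positive, and the median was 0.18. All deficient arrays lay above all controls in 8 of these 20 and below them in 2, against 11.5% and 11.2% of all genes. Slfn5, of the Schlafen family, had the largest difference there, at 1.27 (adjusted p = 0.0594 in limma), and its other probe sets stood at 0.31 and 0.32. It was dim, at 3.63 to 3.97 on the control arrays against 4.64 to 5.59 on the deficient ones, with deficient replicate 1 highest. The medians of all probe sets on the arrays were 4.85 to 4.91. Of 10 interferon-gamma-inducible GTPases and IRF1, 0 passed in limma (0 at an unadjusted p under 0.05), with 9 negative differences and a median of −0.21. Of 8 genes of MHC class I processing, 0 passed in limma (1 at an unadjusted p under 0.05), with 7 negative differences and a median of −0.28. No test of the difference between these lists was made.

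The lists also differed in which arrays were high or low. Control replicate 2 was the highest of all 6 arrays for 9 of the 10 GTPase and IRF1 genes, and without it their median was 0.085 with 7 positive. The median of the MHC class I genes without it was 0.0043. The same array was the highest for 5 of the 33 interferon-stimulated genes. For these 33, control replicate 1 was the lowest array in 20 genes and deficient replicate 2 the highest in 19. Relative to the control mean, the 33 genes had a median of −0.16 for control replicate 1, 0.11 for control replicate 2 and 0.12 for control replicate 3. The deficient replicates had medians of 0.32, 0.63 and 0.50. Deficient replicate 1 was the lowest deficient array in 26 of 33 genes.

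**Figure D4:**
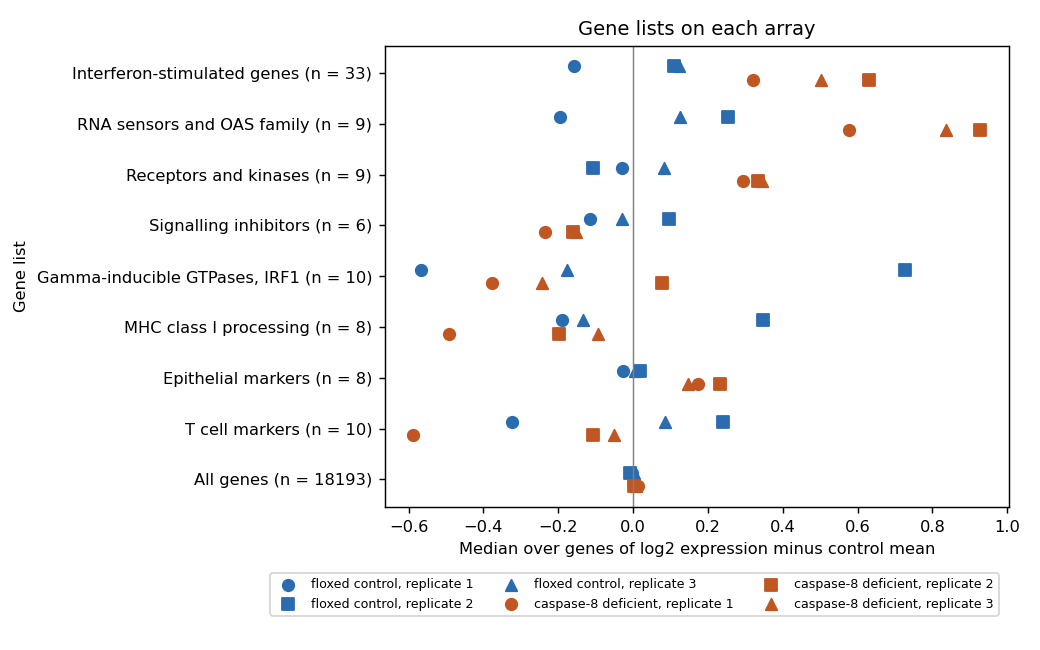
Each point is the median over the genes of a list (y axis, number of genes in brackets) of log2 expression minus the control mean (x axis) on 1 array; blue marks floxed controls and orange caspase-8 deficient arrays. The deficient arrays sit at 0.32 to 0.63 for the interferon-stimulated genes, above the controls at −0.16 to 0.12, whereas control replicate 2 lies highest for the GTPases and IRF1.

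White blood cells and vessel cells also express interferon-stimulated genes, and in these bulk preparations fewer cells of a type and less RNA per cell cannot be told apart. Markers of such cells did not move as 1 group. Of 10 T cell and intraepithelial lymphocyte markers 0 passed in limma (0 at an unadjusted p under 0.05) and 1 had a positive difference, with mean levels of 8.43 to 8.96 on the control and 8.18 to 8.72 on the deficient arrays. Of 6 plasmacytoid dendritic cell markers 0 passed and 2, Siglech and Tlr9, were positive (6.28 to 6.51 against 6.04 to 6.12). The 2 at an unadjusted p under 0.05 in limma, both lower, were Spib and Irf8. Of 5 B and plasma cell markers 0 passed (1 at an unadjusted p under 0.05, lower) and 0 were positive (5.72 to 6.97 against 5.32 to 5.75). Of 10 myeloid markers 4 were positive (5.96 to 6.45 against 6.20 to 6.39) and 1 rose, Mrc1, a macrophage receptor, by 1.06 (adjusted p = 0.0172). Itgam, another myeloid marker, stood at −0.32 with all deficient arrays below the controls (adjusted p = 0.252). Mrc1 was not called without control replicate 1 or 2 or deficient replicate 2 or 3 (adjusted p = 0.0793 to 0.107 in limma). Nor was it called with the Gapdh covariate (adjusted p = 0.136). Of 6 fibroblast markers 0 passed (1 at an unadjusted p under 0.05, higher) and 2 were positive (3.95 to 5.07 against 3.92 to 5.10). Of 8 epithelial markers 0 passed (2 at an unadjusted p under 0.05, higher) and 7 were positive, with a median of 0.18. In 5 of these 8 all deficient arrays lay above all controls, against 11.5% of all genes, so such separation was not particular to the interferon-stimulated genes. The 6 endothelial markers, of which 0 passed in limma (0 at an unadjusted p under 0.05), were all positive, with deficient replicate 1 far above the rest. Without that array the median over the 33 interferon-stimulated genes was 0.53 and 7 of them passed. The number of all genes that passed also varied with the array left out, so this count does not speak for these genes alone. The part of the other cell types in the interferon-stimulated genes was not tested.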

How the data were processed

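Gene expression was measured in IEC of 3 floxed control and 3 caspase-8 deficient mice, 1 Affymetrix 3′ expression array each, from biotin-labelled cRNA, per the labels' protocols. The authors deposited log2 values from RMA, per the submitters' processing notes, with no version named. RMA forces like distributions on all arrays and compresses low signals, which shrinks the differences of dim genes. No detection call comes with the values, and precision is limited by having 3 arrays a group. Values ran from 1.13 to 14.1.

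Of 45101 probe sets, 34945 were paired with 1 gene by the platform annotation, 932 with several, 9160 with none, and 64 were controls. The single-gene probe set with the highest mean of the 6 arrays stood for each of 18193 genes. Deficient minus control was fitted in limma 3.58.1 under R 4.3.3 with lmFit and eBayes, with no covariate; p-values are two-sided and adjusted by Benjamini-Hochberg over all genes at 0.05. The steps were tested on simulated data. The labels call the arrays biological replicates, and p-values measure the spread between them.

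The members, lists and rules were chosen with earlier results of these data known. Values by array are given for members that passed, the 6 largest differences, the negative one and at least 1 or 2 members of each role; of other lists, genes that passed and up to 3 with the smallest p are named. Members with disagreeing probe sets are named. Ifnb1, Ifng, and members given by array beyond this rule were chosen after their values were seen. No gene list was tested. Alternatives were the replicate number as a block, dim genes left out, the mean of a gene's probe sets, no _s_at or _x_at probe sets, every probe set tested, a mean-variance trend and robust prior, array weights, median centring, repeated quantile normalisation, the Gapdh difference as a covariate, each array left out, and control replicates 1 and 2 left out together. For Ifnlr1, Oas1a and Mrc1 the same alternatives were added after the data had been seen. Promoter sequences are from RefSeq (GRCm38.p6); no genome build is named for the arrays. Python 3.11.15 with pandas 2.3.3, numpy 2.4.6 and matplotlib 3.10.9 served for tables and plots.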

Additional observations from a re-analysis of the deposited data

How the results depend on the processing

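Of the 33 interferon-stimulated genes, the number that rose was 2, and 4 with the replicate number as a block, 8 with dim genes left out (31 of the genes kept), 1 with every probe set tested, 7 with a variance trend and robust prior, 18 with array weights, 4 with median centring and 4 with repeated quantile normalisation. It was 0 in limma with the Gapdh covariate and 0 without control replicates 1 and 2 (14 and 10 at an unadjusted p under 0.05; the latter leaves 1 control array, whose spread is assumed), and between 0 and 7 when 1 array was left out. Of all genes, 141 passed, and 298 did with dim genes left out, 252 with the variance trend, 1406 with array weights, 36 with the Gapdh covariate, 5 without control replicates 1 and 2, and between 18 and 251 when 1 array was left out. The median difference of the members, 0.48, was 0.65 with array weights. The cause of these shifts was not tested. Over all genes, the deviations of same-numbered arrays from their group means had correlations of 0.077, 0.10 and −0.0074. Those of arrays with unlike numbers ran from −0.13 to 0.012. With 3 arrays a group, these values cannot decide whether the numbers mark pairs. The labels name no pairs, so the replicate block is only an alternative. Among the 33 members, control replicate 1 was the lowest control in 22 genes and deficient replicate 1 the lowest deficient array in 26. Control replicate 3 was the highest control in 17 and deficient replicate 3 the highest deficient array in 10. With the block the SE fell in most of the 33 members, for Trim30a from 0.31 to 0.13, Sp100 from 0.29 to 0.13 and Rsad2 from 0.34 to 0.24. It rose slightly for Irf7 (from 0.13 to 0.14), Parp12 (from 0.13 to 0.15), Uba7, Mx1, Mx2, Trim21, Parp9, Ifi35 and Samd9l. Pairing among the members was not tested.

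Of 559 results for single members under an alternative, 488 kept sign and call, 39 gained a call, 14 lost one and 18 changed sign; those that changed sign were of members that did not pass. With the mean of probe sets, Adar stood at −0.012 and Trim21 at 0.097. With the Gapdh covariate, Isg20 stood at −0.35, Mx1 at −0.056 and Ifi27l2a at −0.16, and without control replicates 1 and 2 at −0.45, −0.088 and −0.22. When 1 array was left out, Uba7 ran from −0.041 to 0.18, Isg20 from −0.070 to 0.33, Adar from −0.058 to 0.14 and Dtx3l from −0.15 to 0.31. Over all alternatives Rtp4 ran from 0.82 to 1.30 (adjusted p = 0.0034 to 0.626) and Ifit3 from 0.98 to 1.36 (adjusted p = 0.0041 to 0.572). Ifnlr1 ran from 0.65 to 0.76 and Oas1a from 0.81 to 1.04.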
